A study of Homo sapiens with 9 samples.

Results

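HEK293T cells that had been heated at 43 °C for 1 h and returned to 37 °C for 1 h (H1R1) were compared gene by gene with untreated cells kept at 37 °C (NC). The labels call the NC cells untreated wild-type. The comparison rests on 4 of the 9 RNA-seq libraries of the series, 2 of H1R1 and 2 of NC, chosen by their treatment labels. The other libraries were 2 of cells collected at the end of 1 h at 43 °C (H1), 2 after 6 h of recovery (H1R6) and 1 after 18 h (H1R18), and they entered the same model. HEK293T cells derive from human embryonic kidney and carry the large T antigen of SV40, and all cells were grown in DMEM with fetal bovine serum. Heat was given in a water bath, and total RNA was sequenced after removal of ribosomal RNA. Whether libraries of 1 condition stem from separate cultures is not stated, so p-values measure the spread between these libraries, which may be technical.

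When proteins unfold in the heat, chaperones of the HSP70, HSP40 and HSP90 families are drawn away from heat shock factor 1 (HSF1), which then forms trimers and binds heat shock elements, repeats of the unit GAA and its reverse complement TTC, in front of the chaperone genes. Heated cells also pause translation, and stress-activated kinases induce early genes such as those of the AP-1 family. Once cells return to their growth temperature, misfolded proteins are refolded or degraded and the early programmes are switched off again. The comparison asks which transcripts stood away from the untreated level at this point.

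Of 60664 genes in the deposited table, 21139 had enough counts to be tested. Log2 fold changes are of H1R1 over NC and are given with their standard error (SE). A gene is said to have risen or fallen where the quasi-likelihood test of edgeR gave an adjusted p under 0.05. At H1R1, 2254 genes rose (10.7% of those tested) and 2015 fell (9.53%). Among them, 606 rose by at least 1 on the log2 scale and 733 fell by at least that much, and the median log2 fold change was 0.62 for genes that rose and -0.80 for genes that fell. The median over all tested genes was -0.01, with quartiles of -0.43 and 0.36. DESeq2 on the same counts called 1506 rises and 1050 falls. Values are CPM (counts scaled to a common library total), normalized by trimmed mean of M-values (TMM), and are shares of the counted RNA. The amount of RNA per cell was not measured.

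**Figure D1:**
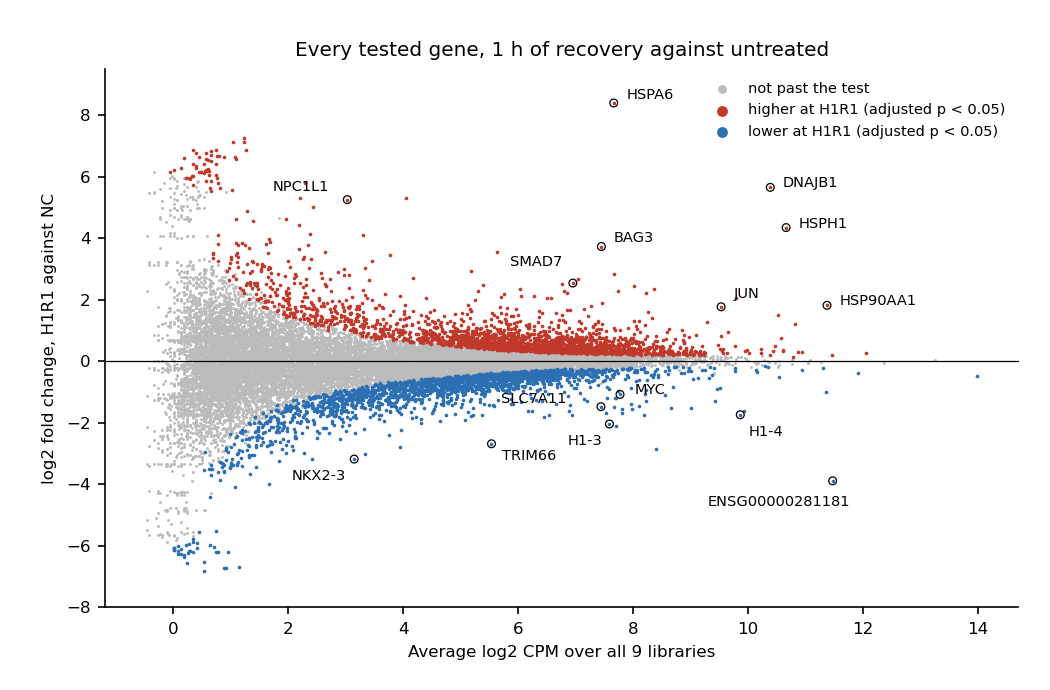
Log2 fold change of H1R1 against NC (vertical axis) by average log2 CPM over all 9 libraries (horizontal axis), 1 dot per tested gene, with 2254 genes that rose in red and 2015 that fell in blue. HSPA6 stands at 8.40, DNAJB1 at 5.65 and ENSG00000281181 at -3.89.

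The H1R1 libraries held 6221613 and 4476409 counts and the NC libraries 4922367 and 3814195. All 37 mitochondrially encoded genes were at 0 in every library. Of 8 marker genes of HEK293-type cells, 6 had at least 10 counts in every library, and their list summed to 372 and 377 CPM at H1R1 and 346 and 354 CPM in NC. The 11 hepatocyte markers summed to 0 and 0.467 CPM at H1R1 and 0.406 and 1.56 CPM in NC, and AHSG, FGA, FGB, SERPINA1 and TTR were at 0 in every library. The call counts depended on the libraries. Without H1R1 replicate 1, 1385 genes rose and 912 fell, and without NC replicate 1 the number that fell was 1299. Scaling by library size in place of TMM gave 1821 rises and 2487 falls, so that 42.3% of calls were rises in place of 52.8%.

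Promoter sequences are shown for 5 chaperone genes that rose and hold a heat shock element within 100 bases of their start, since this element is what HSF1 binds. Each line gives the 100 bases before the start of transcription, 5′ to 3′ on the strand of the gene, from RefSeq on GRCh38.p14, with the element of 3 units in capitals. HSPA6 lies at chr1:161524440-161524539 on the plus strand, CHORDC1 at chr11:90223050-90223149 on the minus strand, HSPA8 at chr11:123062137-123062236 on the minus strand, HSP90AA1 at chr14:102087045-102087144 on the minus strand and SERPINH1 at chr11:75562153-75562252 on the plus strand.
HSPA6: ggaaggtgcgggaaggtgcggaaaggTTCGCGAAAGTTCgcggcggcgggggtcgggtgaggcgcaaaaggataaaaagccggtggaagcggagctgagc
CHORDC1: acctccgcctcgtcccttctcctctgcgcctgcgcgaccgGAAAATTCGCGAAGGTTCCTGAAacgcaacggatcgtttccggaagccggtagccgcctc
HSPA8: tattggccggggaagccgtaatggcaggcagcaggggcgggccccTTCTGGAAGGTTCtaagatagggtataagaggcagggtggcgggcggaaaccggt
HSP90AA1: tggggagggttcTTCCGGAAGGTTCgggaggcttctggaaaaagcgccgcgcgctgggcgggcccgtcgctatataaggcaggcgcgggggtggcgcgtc
SERPINH1: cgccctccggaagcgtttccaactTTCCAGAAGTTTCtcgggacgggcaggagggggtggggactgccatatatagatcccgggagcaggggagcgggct
In CHORDC1, 3 elements overlap. The element was searched as GAANNTTCNNGAA or TTCNNGAANNTTC, which are reverse complements, in windows of 250 bases before to 50 after each start. It was found in 16 of 1706 genes that rose and had a window (0.938%), in 6 of 1450 that fell (0.414%) and in 58 of all 12261 tested genes with a window (0.473%). Among 339 genes that rose by at least 1 on the log2 scale, 10 held it (2.95%). Of all 35116 windows in the RefSeq table, 0.490% did. No exact match lay in the windows of HSPH1, BAG3 or DNAJB1. The cyclic AMP response element TGACGTCA was found in 4.81% of genes that rose, 3.17% of those that fell and 3.69% of tested genes, and a CArG box, the core of the serum response element, in 1.58%, 1.379% and 1.46%. These shares are a description and were not tested.

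Chaperones and their co-factors led the rises at H1R1. Among the 15 genes with the largest rises were HSPA6, an HSP70 that is close to silent in unstressed cells, DNAJB1, the HSP40 that delivers clients to HSP70, HSPH1, an HSP110 that exchanges its nucleotide, BAG3, a co-chaperone that leads HSP70 clients to autophagy, and ZFAND2A, an arsenite- and heat-inducible partner of the proteasome. HSPA6 was at 565 and 689.7 CPM at H1R1, against 0.816 and 3.13 CPM in NC (log2 fold change 8.40, SE 0.29, edgeR adjusted p = 1.05e-19). The NC libraries held only 4 and 12 counts of this gene, and the size of its rise was 7.63 without NC replicate 1 and 9.55 without NC replicate 2. Its near-identical relative HSPA7 lies close by on the same chromosome, and how reads that match both were counted is uncertain. ZFAND2A was at 86.7 and 106 CPM at H1R1, against 8.56 and 7.57 CPM in NC (log2 fold change 3.56, SE 0.20, edgeR adjusted p = 8.22e-15). The groups did not overlap for any of these genes, which the rule for choosing them required.

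Several of the 15 largest rises were in genes outside the chaperone system. NPC1L1, a sterol transporter of the gut, was at 21.7 and 15.005 CPM at H1R1, against 0 and 1.04 CPM in NC (log2 fold change 5.25, SE 0.55, edgeR adjusted p = 1.34e-08), and DCAF4L1 at 20.05 and 20.2 CPM at H1R1, against 1.22 and 1.04 CPM in NC (log2 fold change 4.11, SE 0.41, edgeR adjusted p = 4.76e-09). PNLDC1, ACTRT3, RRH, EFCAB12 and SCUBE2 likewise had under 5 CPM in each NC library and log2 fold changes of 5.31, 3.25, 3.03, 3.44 and 2.80. Of the 15 genes, 9 began within 30 kb past the end of another expressed gene on the same strand, and 5 of those 9 neighbours rose as well. The 15 largest falls had 4 such neighbours, of which 2 fell. How often a tested gene has such a neighbour was not counted. For scale, 17.2% of protein-coding genes of at least 10 CPM in NC rose. PNLDC1 began 1.81 kb past MRPL18 (log2 fold change 2.21), DCAF4L1 20.95 kb past TMEM33, NPC1L1 24.5 kb past DDX56 and SCUBE2 0.711 kb past DENND5A. Whether reads that run on from the neighbour contributed was not tested. Few reads lie behind some of these values. The pooled ratio of H1R1 to NC was 39.6 (95% interval 10.7 to 332, exact) for NPC1L1 and 40.6 (95% interval 13.6 to 199, exact) for PNLDC1, both for counting error only and with 2 counts taken as 1 read pair. NPC1L1 had a log2 fold change of 4.12 without NC replicate 1 and EFCAB12 of 2.59 without NC replicate 2, and leaving out the other NC library put NC at 0 for both, where a fitted value depends on the prior count (9.59 for NPC1L1 and 10.2 for EFCAB12). EFCAB12 missed the threshold in DESeq2 (log2 fold change 3.56, adjusted p = 0.0623). PNLDC1 was at 6.05 without NC replicate 2.

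**Figure D2:**
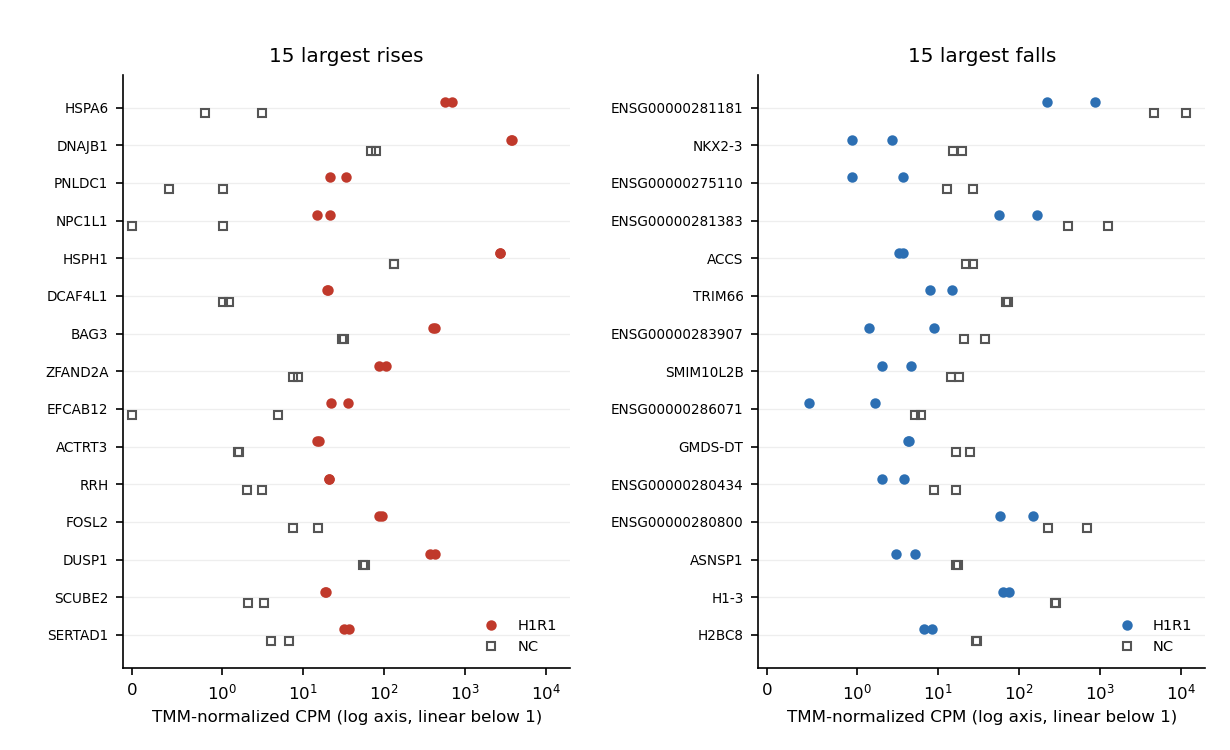
TMM-normalized CPM (horizontal axis, logarithmic above 1 and linear below) of the 15 largest rises (left) and falls (right), with 1 filled dot per H1R1 library and 1 open square per NC library. In every row both H1R1 libraries lie beyond both NC libraries, which the choice of genes required.

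Much of the protein folding machinery rose, though less of it in mitochondria. Among the HSP70 and HSP110 chaperones 6 of 10 tested members rose, with a median log2 fold change of 0.95 over the list against -0.01 over all tested genes, and their summed level was 6611 and 6298 CPM at H1R1, against 1129.5 and 1220.4 CPM in NC. HSPA8, the constitutive HSP70 of the cytosol, was at 2192 and 1695 CPM at H1R1, against 433 and 509.6 CPM in NC (log2 fold change 2.05, SE 0.11, edgeR adjusted p = 3.07e-15). HSPA4L, a further HSP110, was at 407 and 479 CPM at H1R1, against 82.0 and 81.9 CPM in NC (log2 fold change 2.43, SE 0.09, edgeR adjusted p = 1.17e-18). Even the lower H1R1 library stood more than 3-fold above the higher NC library for both. HSPA4 rose by 0.95 on the log2 scale, and HSPA12A, an atypical HSP70, was at 61.8 and 58.6 CPM at H1R1 and 66.1 and 65.0 CPM in NC (adjusted p = 0.537 in edgeR). HSPA13, an HSP70 of the endoplasmic reticulum, was the member that fell (log2 fold change -0.48, SE 0.12, edgeR adjusted p = 0.00375), a call lost without NC replicate 2 (-0.28, adjusted p = 0.144 in edgeR) or H1R1 replicate 1 (-0.34, adjusted p = 0.126). The major inducible pair HSPA1A and HSPA1B could not be tested: HSPA1A had 0 and 3 counts at H1R1 and 0 and 0 in NC, and HSPA1B had 0 in all 4.

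Among HSP40 co-chaperones 8 of 14 rose and 1 fell. DNAJA1, a farnesylated partner of HSPA8, was at 666 and 572 CPM at H1R1, against 138 and 129.9 CPM in NC (log2 fold change 2.21, SE 0.11, edgeR adjusted p = 3.48e-16). DNAJB4 and DNAJB6, of which the second keeps polyglutamine proteins from aggregating, had log2 fold changes of 2.18 and 1.78. DNAJC13, which acts at endosomes, fell by 0.42. DNAJB2, a partner of HSP70 in protein disposal, was at 16.7 and 14.1 CPM at H1R1 and 14.7 and 18.8 CPM in NC (adjusted p = 0.82 in edgeR). Of the HSP90 system 10 of 15 rose and none fell. CHORDC1, an HSP90 co-chaperone with a zinc-binding CHORD domain, was at 464 and 498 CPM at H1R1, against 84.8 and 105 CPM in NC (log2 fold change 2.34, SE 0.10, edgeR adjusted p = 1.74e-17). HSP90AA1, the inducible cytosolic HSP90, was at 3438 and 3544 CPM at H1R1, against 985 and 999 CPM in NC (log2 fold change 1.82, SE 0.05, edgeR adjusted p = 1.38e-22), and HSP90AB1, the constitutive one, rose by 1.21. With both, the HSP90 list summed to 8906 and 9100.3 CPM at H1R1, against 3743 and 3628 CPM in NC. The co-chaperones FKBP4 and PTGES3 rose by 1.41 and 0.86, whereas FKBP5, known as a glucocorticoid target, was at 84.9 and 82.1 CPM at H1R1 and 91.6 and 77.2 CPM in NC (adjusted p = 0.925 in edgeR).

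Small heat shock proteins and BAG co-chaperones had 6 of 12 rises. HSPB1, which holds unfolded proteins without ATP, was at 81.5 and 124 CPM at H1R1, against 32.6 and 36.5 CPM in NC (log2 fold change 1.56, SE 0.15, edgeR adjusted p = 1.55e-09), and HSPB8, the partner of BAG3, rose by 1.36. Of genes for TRiC, the ring-shaped chaperonin that folds actin and tubulin, 8 of 10 rose and 5 did without NC replicate 1. TCP1 was at 839 and 776 CPM at H1R1, against 337 and 329.6 CPM in NC (log2 fold change 1.28, SE 0.07, edgeR adjusted p = 4.15e-15), while the rises of CCT6A, CCT2, CCT4 and CCT3 were 0.69, 0.60, 0.46 and 0.38. TCP1 thus changed by more than these partners of the same ring, a difference that was not tested. In mitochondria 4 of 14 tested chaperones and proteases rose and none fell, with a list median of 0.12. HSPE1 and HSPD1, which form the HSP10 and HSP60 chaperonin, both rose. HSPE1 did so by 2.04, and HSPD1 was at 2011 and 1961 CPM at H1R1, against 670.5 and 734 CPM in NC (edgeR adjusted p = 1.17e-18). The other mitochondrial members that rose were HSPA9, the HSP70 of the import motor, and its exchange factor GRPEL1 (0.36 and 0.82), and the protease LONP1 was at 221 and 247 CPM at H1R1 and 264 and 238 CPM in NC (adjusted p = 0.406 in edgeR). In the list of heat shock factors and their regulators 3 of 11 rose, namely SERPINH1, EP300 and HIKESHI, and no heat shock factor did. The 1 member that fell was the factor HSF2 (log2 fold change -0.47, SE 0.15, edgeR adjusted p = 0.0234). That call was lost in DESeq2 (adjusted p = 0.0996) and without NC replicate 2 or either H1R1 library (edgeR adjusted p of 0.339, 0.065 and 0.122). HSF1 itself was at 102 and 95.2 CPM at H1R1 and 88.1 and 78.3 CPM in NC, which did not pass the test (adjusted p = 0.102 in edgeR). SERPINH1, the collagen chaperone HSP47, was at 202 and 254 CPM at H1R1, against 62.8 and 59.5 CPM in NC (log2 fold change 1.89, SE 0.10, edgeR adjusted p = 4.06e-15).

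Protein disposal rose by smaller steps. Of proteasome subunits and activators 14 of 36 rose and 1 fell, with a list median of 0.27, and the regulatory particle led: PSMD6 was at 185 and 167 CPM at H1R1, against 100.3 and 108 CPM in NC (log2 fold change 0.76, SE 0.09, edgeR adjusted p = 2.59e-07), and PSMD12, PSMD1 and PSMD11 rose by 0.64, 0.53 and 0.52. Among genes of ubiquitin, SUMO and unfolded protein disposal 12 of 26 rose and 2 fell. UBB, a polyubiquitin gene, was at 316 and 327 CPM at H1R1, against 191 and 216 CPM in NC (log2 fold change 0.66, SE 0.08, edgeR adjusted p = 2.95e-07). RPS27A, a ubiquitin gene fused to a ribosomal protein, was at 409 and 404 CPM at H1R1 and 406 and 386 CPM in NC (adjusted p = 0.768 in edgeR). Of autophagy and lysosome genes 9 of 30 rose, among them ATG16L1 (log2 fold change 1.05, SE 0.15, edgeR adjusted p = 2.68e-06) and MAP1LC3B (0.65), both of which build the autophagosome membrane, while the lysosomal LAMP2 and CTSB did not pass the test (-0.15 and -0.15). Only 6 proteasome genes and 4 autophagy genes rose without H1R1 replicate 1. Only 4 autophagy genes rose without NC replicate 1. DESeq2 called rises in 8 proteasome genes and 4 autophagy genes.

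Early response genes had moved apart from each other, and 6 of 14 tested AP-1 and ATF factors rose and 1 fell. JUN and FOSL2, partners in AP-1, were still high. FOSL2 was at 86.5 and 94.95 CPM at H1R1, against 15.5 and 7.57 CPM in NC (log2 fold change 2.93, SE 0.21, edgeR adjusted p = 4.92e-12; 3.58 without NC replicate 1), and JUND and MAFG rose by 0.92 and 1.28. FOS was at 24.9 and 23.9 CPM at H1R1 and 20.2 and 27.7 CPM in NC (adjusted p = 0.916 in edgeR), and its groups overlapped. FOSB, in contrast, was at 17.7 and 12.4 CPM at H1R1, against 39.2 and 36.0 CPM in NC and fell (log2 fold change -1.30, SE 0.24, edgeR adjusted p = 0.000146). EGR1, a zinc finger factor induced within minutes of many stimuli, also overlapped between groups, with 24.1 and 19.2 CPM at H1R1 and 18.8 and 29.7 CPM in NC (adjusted p = 0.722 in edgeR). Of 26 tested genes of a list named for the EGR, IER and NR4A families, 15 rose and none fell. The list is broader than its name, and most of the rises were in other genes, such as MCL1, ZFP36, CCN1 and CCN2. IER5, IER5L and NR4A3 rose, and no EGR gene did. MCL1 is also counted in the BCL2 family, and CCN1 and CCN2 among YAP targets. GADD45B, which binds the stress kinase MAP3K4, was at 75.01 and 66.1 CPM at H1R1, against 11.01 and 18.8 CPM in NC (log2 fold change 2.28, SE 0.19, edgeR adjusted p = 8.88e-11), and IER5, a heat-inducible regulator of HSF1, at 223 and 275 CPM at H1R1, against 75.5 and 76.7 CPM in NC (log2 fold change 1.71, SE 0.11, edgeR adjusted p = 9.97e-14). MCL1, a short-lived survival factor, rose by 1.17. Of KLF factors 6 of 13 rose, among them KLF3 (0.96), KLF11 (0.69) and KLF6 (0.67), and 2 fell, KLF15 (-1.51) and KLF9 (-0.47), of which KLF9 lost its call without H1R1 replicate 1.

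Feedback inhibitors of signalling rose widely. Of the list of MAP kinase phosphatases and related inhibitors, 9 of 13 tested members rose and none fell, with a list median of 0.92. DUSP1, which switches off JNK and p38, was at 375 and 428 CPM at H1R1, against 57.9 and 54.8 CPM in NC (log2 fold change 2.83, SE 0.09, edgeR adjusted p = 3.12e-20). DUSP16, a JNK phosphatase, rose by 1.28, RGS2, an inhibitor of G protein signals, by 2.17, and ERRFI1, an inhibitor of the EGF receptor, by 1.01. Of genes for TGF-beta and BMP feedback and of ID and HES factors, 13 of 19 rose and 2 fell. SMAD7, the inhibitory SMAD of TGF-beta receptors, was at 306 and 277 CPM at H1R1, against 60.4 and 38.6 CPM in NC (log2 fold change 2.54, SE 0.12, edgeR adjusted p = 2.84e-16). BAMBI, a decoy receptor, and SMAD6, the inhibitory SMAD of BMP receptors, rose by 1.98 and 0.95. The members that fell were HES4 (-1.02) and ID4 (-0.62), whereas ID3 and HEY1 rose (1.02 and 0.44).

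Of Hippo pathway factors and YAP targets 7 of 17 rose. ANKRD1 was at 15.2 and 12.4 CPM at H1R1, against 0.408 and 0 CPM in NC (log2 fold change 5.78, SE 0.67, edgeR adjusted p = 1.07e-07), where the NC libraries held 2 and 0 counts. The pooled ratio was 58.8 (95% interval 10.2 to 2354, exact), and the log2 fold change was 5.01 without NC replicate 2 and 9.14 without NC replicate 1, where NC was at 0. CCN1 and AMOTL2 rose by 1.53 and 1.30. Other pathways are given beside the shares over all tested genes, 10.7% for rises and 9.53% for falls. WNT targets rose in 1 of 11 (9.09%) and fell in none. The p53 targets rose in 1 of 17 (5.88%) and fell in 2 (11.8%). NF-kB targets rose in none and fell in 2 of 9 (22.2%). Circadian clock genes rose in 3 of 16 (18.75%) and fell in 1 (6.25%), CRY2, whose call was lost in DESeq2. The single p53 target that rose was CDKN1A, the inhibitor p21, at 38.6 and 32.8 CPM at H1R1, against 24.5 and 26.6 CPM in NC (log2 fold change 0.49, SE 0.17, edgeR adjusted p = 0.0409). Its call was lost without either NC library, without either H1 library, without H1R1 replicate 1 (adjusted p 0.0545 to 0.299) and in DESeq2 (adjusted p = 0.159). MDM2 was at 142 and 119.8 CPM at H1R1 and 129 and 125 CPM in NC (adjusted p = 0.799 in edgeR), and NFKBIA, the classical NF-kB feedback inhibitor, had a log2 fold change of 0.24 (adjusted p = 0.443). 0 p53 targets, 0 NF-kB targets and 1 KLF gene fell and 1 clock gene rose without H1R1 replicate 1. Only 1 NF-kB target fell and 1 clock gene rose without H1R1 replicate 2. Only 1 p53 target and 1 NF-kB target fell without NC replicate 1 or NC replicate 2.

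**Figure D3:**
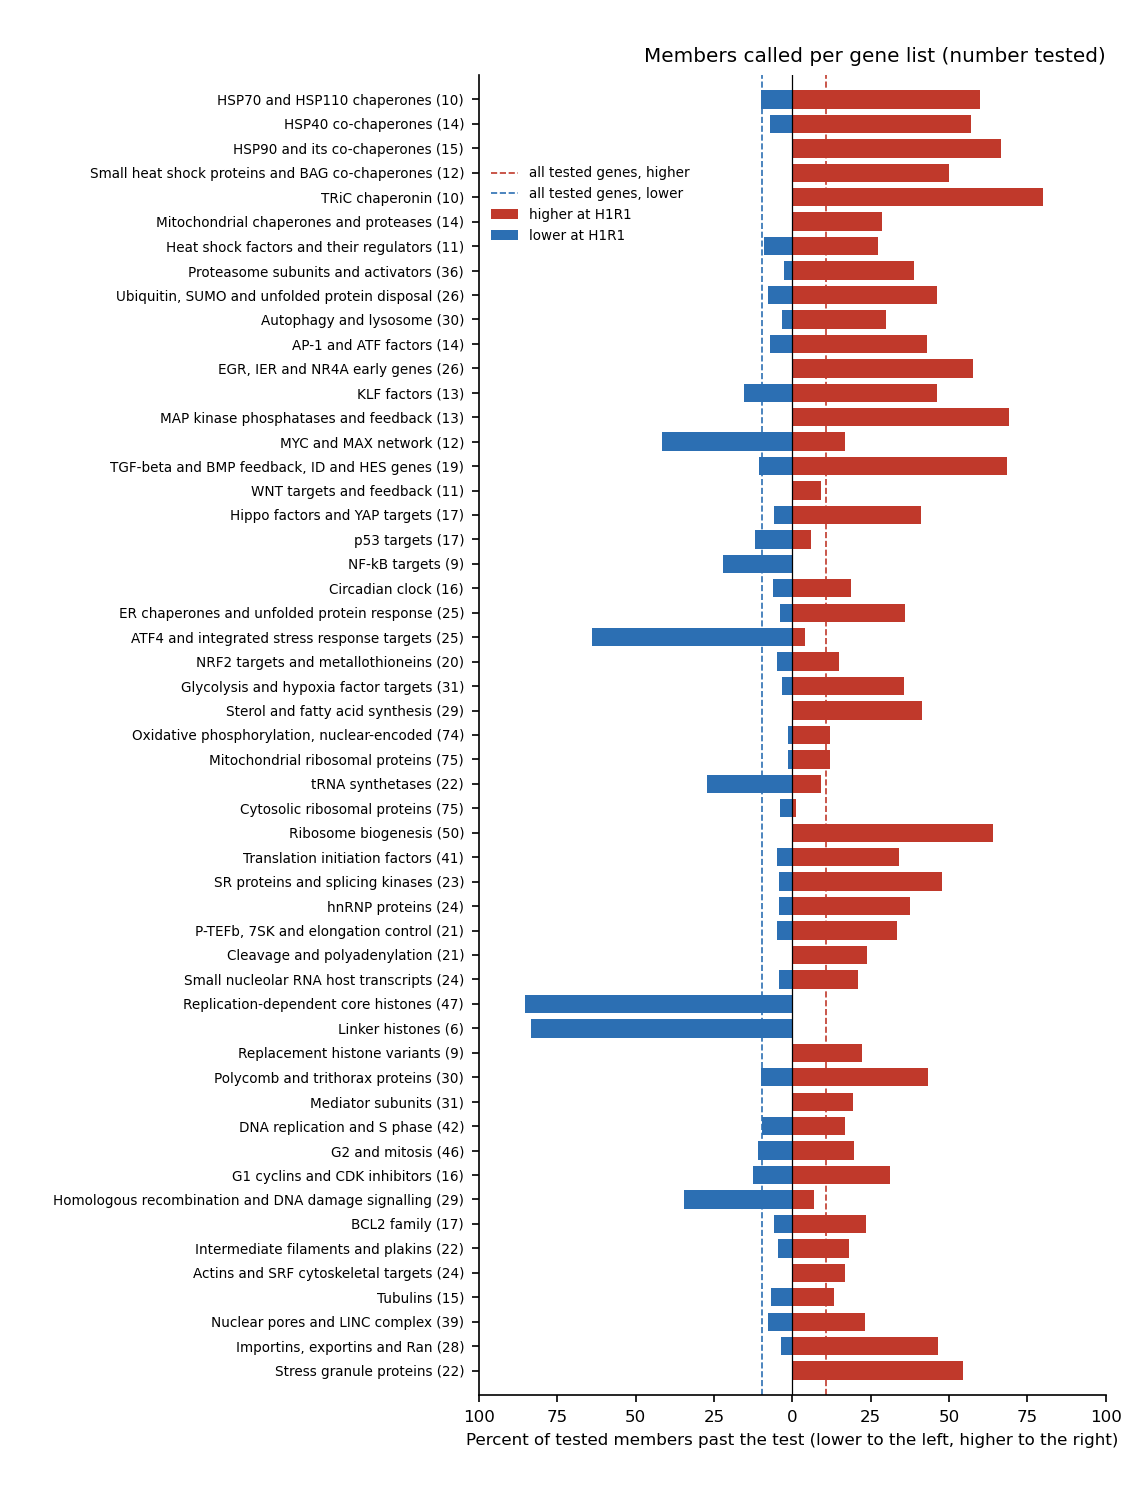
Percent of the tested members of each gene list that rose (red, to the right) or fell (blue, to the left) at H1R1 against NC, with the number tested in brackets and dashed lines at the shares over all tested genes, 10.7% and 9.53%. TRiC (8 of 10) and the MAP kinase feedback inhibitors (9 of 13) reach furthest to the right, and core histones (40 of 47) and linker histones (5 of 6) furthest to the left.

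The stress programmes of the endoplasmic reticulum and of amino acid supply mostly moved in opposite directions. Among ER chaperones and unfolded protein response genes 9 of 25 rose and 1 fell. HSPA5, the ER HSP70 known as BiP, was at 1084 and 1002 CPM at H1R1, against 513 and 561 CPM in NC (log2 fold change 0.96, SE 0.07, edgeR adjusted p = 2.25e-12). EIF2AK3, the ER stress sensor PERK, rose by 0.84, and CALR and HSP90B1 by 0.33 and 0.29. EDEM1, which removes unfolded glycoproteins, fell (log2 fold change -0.74, SE 0.10, edgeR adjusted p = 1.9e-06). DDIT3, the CHOP factor, was at 7.02 and 5.16 CPM at H1R1 and 7.14 and 6.78 CPM in NC (adjusted p = 0.769 in edgeR). Of ATF4 and integrated stress response targets 16 of 25 fell and 1 rose, and the list median was -0.50. SLC7A11, the cystine importer, was at 84.9 and 128 CPM at H1R1, against 275 and 313 CPM in NC (log2 fold change -1.48, SE 0.13, edgeR adjusted p = 1.82e-10). CTH, which makes cysteine, was at 31.6 and 52.5 CPM at H1R1, against 102 and 104.1 CPM in NC (log2 fold change -1.32, SE 0.16, edgeR adjusted p = 1.71e-07). Replicate 2 of H1R1 was nearer to NC than replicate 1 for both, and neither overlapped with NC. The serine synthesis genes PSAT1 and PHGDH fell by 0.92 and 0.55, and MTHFD2, of mitochondrial folate metabolism, fell by 0.61. ATF4 itself was at 399 and 481 CPM at H1R1, against 587 and 572 CPM in NC (log2 fold change -0.40, SE 0.08, edgeR adjusted p = 0.000745), and its call was lost without H1R1 replicate 1 (-0.27, adjusted p = 0.0646 in edgeR). The whole list summed to 3423 and 4338 CPM at H1R1, against 5177 and 5343 CPM in NC. Only 6 ATF4 targets fell without H1R1 replicate 1. DESeq2 called falls in 10.

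The genes that load amino acids onto tRNA moved in both directions. AARS1, SARS1 and WARS1 fell by 0.39, 0.50 and 0.50, RARS1 rose by 0.70, and in all 6 of 22 fell and 2 rose. EIF4EBP1, which holds back the cap-binding factor EIF4E, was at 70.3 and 88.6 CPM at H1R1, against 159 and 153 CPM in NC (log2 fold change -0.99, SE 0.12, edgeR adjusted p = 1.43e-07), and EIF4E itself rose by 0.76. EIF5, which sets start codon choice, was at 386 and 348 CPM at H1R1, against 169 and 165 CPM in NC (log2 fold change 1.13, SE 0.08, edgeR adjusted p = 7.69e-12). Of all translation initiation factors 14 of 41 rose. The clearest move in the translation machinery was that of ribosome biogenesis, where 32 of 50 rose and none fell. UBTF, the RNA polymerase I factor, was at 347 and 326 CPM at H1R1, against 169 and 163 CPM in NC (log2 fold change 1.02, SE 0.08, edgeR adjusted p = 2.71e-11). RRP12, DDX21 and NOP58, which assemble and modify pre-ribosomes, rose by 0.78, 0.68 and 0.64, and NCL, the abundant nucleolin, by 0.38. The cytosolic ribosomal proteins stayed close to the untreated level, since 1 of 75 rose, 3 fell and the list median log2 fold change was 0.01. Their summed level was 40686 and 41865 CPM at H1R1, against 40722 and 42858 CPM in NC. Only 1 ribosomal protein gene fell without H1 replicate 1 or H1 replicate 2. Only 3 tRNA synthetases and 1 ribosomal protein gene fell and 4 initiation factors rose without H1R1 replicate 1. Only 9 initiation factors rose and 1 ribosomal protein gene fell without NC replicate 2. With scaling by library size, 7 ribosomal protein genes fell.

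MYC, which drives ribosome biogenesis and growth, went the other way from the biogenesis genes. It was at 128 and 151 CPM at H1R1, against 295 and 291 CPM in NC (log2 fold change -1.08, SE 0.09, edgeR adjusted p = 5.17e-11), and both H1R1 libraries were far below both NC libraries. MXD1, which competes with MYC for its partner MAX, was at 42.1 and 41.0 CPM at H1R1, against 12.2 and 7.31 CPM in NC (log2 fold change 2.06, SE 0.23, edgeR adjusted p = 6.55e-08). MXD3 fell by 0.81, and MAX was at 71.5 and 59.3 CPM at H1R1 and 53.6 and 55.8 CPM in NC (adjusted p = 0.144 in edgeR). In all 5 of 12 members of the network fell and 2 rose. Only 3 members fell without H1 replicate 1, H1 replicate 2, H1R6 replicate 1 or H1R6 replicate 2. Only 2 members fell without H1R1 replicate 1 or NC replicate 1. Only 1 member rose without H1R1 replicate 2 or NC replicate 2.

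Of all lists, core histones that are made in S phase had the most members that fell. Of 57 listed genes 47 were tested, 40 of these fell and none rose, and their summed level was 4007 and 4165 CPM at H1R1, against 9603 and 10446 CPM in NC. H3C2 was at 403 and 423 CPM at H1R1, against 943 and 1089.9 CPM in NC (log2 fold change -1.30, SE 0.07, edgeR adjusted p = 3.36e-15), and H2BC18 at 89.4 and 99.4 CPM at H1R1, against 307 and 298 CPM in NC (log2 fold change -1.69, SE 0.09, edgeR adjusted p = 9.81e-16). Of linker histones, 5 of 6 fell. H1-4 was at 427 and 494 CPM at H1R1, against 1466 and 1613 CPM in NC (log2 fold change -1.74, SE 0.07, edgeR adjusted p = 1.54e-18). The groups did not overlap for any of these. Replacement histones, made throughout the cell cycle, did not follow: 2 of 9 rose, none fell, and H2AZ1 was at 379 and 349.8 CPM at H1R1 and 344 and 374 CPM in NC (adjusted p = 0.865 in edgeR). 0 replacement histone genes rose without H1R1 replicate 1. Only 1 replacement histone gene rose without NC replicate 2. Many core histone genes are nearly alike, so how reads were divided among them is uncertain. In bulk RNA, fewer cells in S phase and less histone RNA per such cell cannot be told apart.

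Other genes of the cell cycle moved in both directions. For scale, 10.7% of all tested genes rose and 9.53% fell. Of protein-coding genes of at least 10 CPM in NC, 17.2% rose and 14.5% fell. The shares for replication and mitosis lie near these. Of DNA replication genes 7 of 42 rose (16.7%) and 4 fell (9.52%), and with scaling by library size 4 rose and 13 fell. CCNE1, the cyclin of S phase entry, was at 47.6 and 42.7 CPM at H1R1, against 22.0 and 20.4 CPM in NC (log2 fold change 1.09, SE 0.18, edgeR adjusted p = 3.32e-05), and CDC6, which licenses origins, rose by 0.62. MCM4 and MCM3, of the replicative helicase, were at 0.00 and -0.17 on the log2 fold change scale and did not pass the test. Of genes of G2 and mitosis 9 of 46 rose (19.6%) and 5 fell (10.9%), against 5 and 5 with scaling by library size. CKS2, CDC25A and CDC20 rose by 1.04, 0.65 and 0.57, and HMMR, a spindle protein, fell by 0.66. Of G1 cyclins and CDK inhibitors 5 of 16 rose (31.25%) and 2 fell (12.5%). The falls were those of RBL1 and RBL2 (-0.57 and -0.68), which encode relatives of the retinoblastoma protein. In homologous recombination and DNA damage signalling 10 of 29 fell (34.5%) and 2 rose (6.90%). BARD1 was at 38.1 and 38.4 CPM at H1R1, against 66.9 and 68.1 CPM in NC (log2 fold change -0.82, SE 0.13, edgeR adjusted p = 1.66e-05), and BRCA2, XRCC2 and ATR fell by 0.71, 0.63 and 0.48, while ATM was at 239 and 254 CPM at H1R1 and 246 and 239 CPM in NC (adjusted p = 0.898 in edgeR). Only 3 G1 genes and 1 recombination gene rose without H1 replicate 1 or H1 replicate 2. Only 4 replication genes, 2 G1 genes and 0 recombination genes rose and 1 replication gene and 2 mitotic genes fell without H1R1 replicate 1. Only 1 recombination gene rose without H1R1 replicate 2. Only 1 replication gene and 3 mitotic genes fell and 2 G1 genes and 1 recombination gene rose without NC replicate 1. Only 2 replication genes and 1 mitotic gene fell and 1 G1 gene and 1 recombination gene rose without NC replicate 2.

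Regulators of RNA synthesis and processing rose more often than they fell. Their shares of rises ran from 20.8% of snoRNA hosts and 23.8% of cleavage factors to 54.5% of stress granule proteins. For scale, 10.7% of all tested genes rose and 9.53% fell, and 17.2% of protein-coding genes of at least 10 CPM in NC rose. The shares of snoRNA hosts and cleavage factors lie not far above the last of these. Of SR proteins and splicing kinases 11 of 23 rose and 1 fell. CLK1, a kinase that releases SR proteins, was at 111 and 132 CPM at H1R1, against 40.2 and 41.7 CPM in NC (log2 fold change 1.56, SE 0.12, edgeR adjusted p = 1.6e-11), and SRSF4 and TRA2B rose by 0.75 and 0.66. SRSF5 fell by 0.43. Of hnRNP proteins 9 of 24 rose, by small steps such as 0.48 for HNRNPC. The member that fell was CIRBP, the cold-inducible RNA-binding protein, at 149.5 and 145 CPM at H1R1, against 253 and 276 CPM in NC (log2 fold change -0.85, SE 0.09, edgeR adjusted p = 9.75e-09). RBM3, the other cold-inducible protein of the list, was at 257 and 253 CPM at H1R1 and 257 and 269 CPM in NC (adjusted p = 0.75 in edgeR). Of elongation factors around P-TEFb 7 of 21 rose, with CCNT1, its cyclin, at 0.76 and HEXIM1, its inhibitor, at 0.71. Of cleavage and polyadenylation factors 5 of 21 rose. CLP1 was at 37.8 and 33.3 CPM at H1R1, against 15.9 and 9.39 CPM in NC (log2 fold change 1.47, SE 0.23, edgeR adjusted p = 1.39e-05), and PCF11, which ends transcription, rose by 0.71. Of snoRNA host transcripts 5 of 24 rose, among them SNHG17 (0.89) and SNHG12 (0.84). Of stress granule proteins 12 of 22 rose and none fell, among them G3BP1 (0.41) and TIAL1 (0.52). Only 4 elongation genes, 3 cleavage factors, 3 snoRNA hosts and 6 stress granule genes rose without H1R1 replicate 1.

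Among Polycomb and trithorax genes 13 of 30 rose and 3 fell. KDM6A, a demethylase of H3K27, and PHC3, a Polycomb subunit, rose by 0.80 and 0.74. CBX7, a reader of the same mark, was at 8.85 and 5.63 CPM at H1R1, against 31.8 and 23.0 CPM in NC (log2 fold change -1.89, SE 0.25, edgeR adjusted p = 1.23e-06), and EZH1, one of its writers, at 26.9 and 29.5 CPM at H1R1, against 59.7 and 71.5 CPM in NC (log2 fold change -1.22, SE 0.14, edgeR adjusted p = 7.53e-08). Of Mediator subunits 6 of 31 rose (19.4%), among them MED13 (0.62). That share is near the 17.2% of protein-coding genes of at least 10 CPM in NC. Of the BCL2 family 4 of 17 rose (23.5%) and 1 fell (5.88%). Along with MCL1, the pro-apoptotic BCL2L11 and HRK rose (1.01 and 0.91), so that members of both roles were higher at H1R1. BCL2L11 was at 97.2 and 94.01 CPM at H1R1, against 50.8 and 43.6 CPM in NC. Only 8 Polycomb and trithorax genes rose without H1R1 replicate 1. Only 3 Mediator genes rose without NC replicate 1.

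Metabolic genes changed by small amounts and mainly upward. Of genes for glycolysis and hypoxia 11 of 31 rose, with ENO1 at 1967 and 1886 CPM at H1R1, against 1467 and 1501 CPM in NC (log2 fold change 0.38, SE 0.05, edgeR adjusted p = 5.8e-06) and the regulator PFKFB4 at 1.14, while GAPDH was at 1077 and 1078 CPM at H1R1 and 992 and 1065 CPM in NC (adjusted p = 0.482 in edgeR). In sterol and fatty acid synthesis 12 of 29 rose and none fell. INSIG1, which holds back sterol synthesis, was at 136 and 112 CPM at H1R1, against 80.1 and 72.3 CPM in NC (log2 fold change 0.71, SE 0.10, edgeR adjusted p = 7e-06), and FASN, the fatty acid synthase, rose by 0.48. Of NRF2 targets and metallothioneins 3 of 20 rose, with the zinc exporter SLC30A1 furthest (1.31). Oxidative phosphorylation genes rose in 9 of 74 (12.2%) and mitochondrial ribosomal proteins in 9 of 75 (12.0%), beside 10.7% of all tested genes. The share that rose depends on level, and it was 17.2% for protein-coding genes of at least 10 CPM in NC. MRPL18 had the largest rise of the mitochondrial ribosomal proteins, with 227 and 193 CPM at H1R1, against 43.6 and 47.5 CPM in NC (log2 fold change 2.21, SE 0.11, edgeR adjusted p = 2.84e-16). Only 6 glycolysis and hypoxia genes, 4 oxidative phosphorylation genes and 4 mitochondrial ribosomal protein genes rose without H1R1 replicate 1. Only 6 glycolysis and hypoxia genes and 5 mitochondrial ribosomal protein genes rose without H1R1 replicate 2. Only 4 oxidative phosphorylation genes and 4 mitochondrial ribosomal protein genes rose without NC replicate 1.

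Among genes of cell structure and nuclear transport given here, the transport list had the largest share of rises. For scale, 10.7% of all tested genes rose and 9.53% fell. Of protein-coding genes of at least 10 CPM in NC, 17.2% rose and 14.5% fell. Actins, tubulins and filaments lie near these shares. Of importins, exportins and Ran regulators 13 of 28 rose (46.4%) and 1 fell. RANGAP1, which activates the Ran GTPase, was at 436 and 428 CPM at H1R1, against 278 and 267 CPM in NC (log2 fold change 0.66, SE 0.07, edgeR adjusted p = 4.51e-08), and IPO9, an importer of histones, fell by 0.43. Of nuclear pore and LINC complex genes 9 of 39 rose (23.1%) and 3 fell (7.69%). RAE1 and RANBP2 rose by 0.69 and 0.57, and SYNE1, a giant linker of the nucleus to the cytoskeleton, was at 16.7 and 20.2 CPM at H1R1, against 32.0 and 39.9 CPM in NC (log2 fold change -0.97, SE 0.19, edgeR adjusted p = 0.00048). Of actins and SRF targets 4 of 24 rose (16.7%), with ACTB at 0.31 and ACTG1 at 0.22. Tubulins rose in 2 of 15 (13.3%), and intermediate filaments and plakins in 4 of 22 (18.2%). Of these VIM, the vimentin gene, was at 269.8 and 291 CPM at H1R1, against 201 and 207 CPM in NC (log2 fold change 0.46, SE 0.08, edgeR adjusted p = 6.02e-05), and LMNB2, a lamin gene, rose by 0.32. Only 8 transport genes, 0 tubulin genes and 2 filament genes rose without H1R1 replicate 1. Only 8 transport genes rose without NC replicate 1. As many as 4 tubulin genes rose without NC replicate 1. Only 2 filament genes rose without NC replicate 2.

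The 15 largest falls were mixed. NKX2-3, a homeobox factor, was at 2.67 and 0.938 CPM at H1R1, against 19.98 and 15.1 CPM in NC (log2 fold change -3.18, SE 0.38, edgeR adjusted p = 1.81e-07, and -4.20 without H1R1 replicate 1), TRIM66, a reader of histone marks, at 7.85 and 15.005 CPM at H1R1, against 69.3 and 72.5 CPM in NC (log2 fold change -2.69, SE 0.19, edgeR adjusted p = 3.28e-12), and ACCS at 3.68 and 3.28 CPM at H1R1, against 22.0 and 26.6 CPM in NC (log2 fold change -2.78, SE 0.30, edgeR adjusted p = 3.39e-08). H1-3 and H2BC8 stood for the histones. H2BC8 was at 6.68 and 8.44 CPM at H1R1, against 30.6 and 29.2 CPM in NC, and H1-3 fell by 2.04. ASNSP1, a pseudogene of the ATF4 target ASNS, was at 3.01 and 5.16 CPM at H1R1, against 16.5 and 17.5 CPM in NC (log2 fold change -2.09, SE 0.35, edgeR adjusted p = 4.82e-05). The noncoding genes ENSG00000281181, ENSG00000281383 and ENSG00000280800 lie on the minus strand of chromosome 21 (GRCh38), at 8437629 to 8438551, 8254592 to 8255514 and 8210384 to 8211306. ENSG00000281181 was at 870.2 and 221 CPM at H1R1, against 11610.0 and 4682 CPM in NC (log2 fold change -3.89, SE 0.41, edgeR adjusted p = 1.65e-08). For all 3 genes the 2 libraries of H1R1 differed by more than 2-fold, as did those of NC, and single libraries moved them. ENSG00000281181 was at -3.08 without NC replicate 1, -5.20 without H1R1 replicate 1 and -3.23 without H1R1 replicate 2. ENSG00000281383 (-2.85) was at -1.82 without NC replicate 1 and -3.86 without H1R1 replicate 1. ENSG00000280800 (-2.11) was at -2.99 without H1R1 replicate 1 and lost its call without NC replicate 1 (-1.11, adjusted p = 0.0795 in edgeR) and in DESeq2 (-2.13, adjusted p = 0.12). Whether their reads are left-over ribosomal RNA was not tested. ENSG00000283907, GMDS-DT, ENSG00000275110, SMIM10L2B, ENSG00000280434 and ENSG00000286071 completed the group with -2.40, -2.25, -3.02, -2.33, -2.22 and -2.28, and ENSG00000283907 missed the threshold in DESeq2 (-2.48, adjusted p = 0.0972). Without H1R1 replicate 1, ENSG00000283907 was at -4.38, ENSG00000275110 at -4.40 and ENSG00000286071 at -3.53. ENSG00000283907 and SMIM10L2B were at -1.72 and -3.00 without H1R1 replicate 2, and ENSG00000275110 at -2.38 without NC replicate 1.

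Rises were less frequent, and falls more frequent, among genes that span long stretches of the genome. Over protein-coding genes of at least 10 CPM in NC, without the listed histones, 17.9% of 592 genes spanning under 5 kb rose and 11.5% fell. For 5 to 20 kb the shares were 19.95% and 11.4% of 2506 genes, for 20 to 100 kb 18.4% and 14.6% of 4770, and for 100 to 200 kb 14.3% and 16.5% of 1381. Above 200 kb, 7.65% of 876 genes rose and 18.2% fell, so the ratio of rises to falls turned over between the 20 to 100 kb and the 100 to 200 kb bins. Genes of more than 25 merged exons leaned the same way, with 12.1% rises and 20.9% falls among 1359. By level, 26.7% of the 2377 genes above 100 CPM in NC rose and 14.01% fell, against 3.76% and 4.83% of 8025 genes at 1 to 10 CPM. Protein-coding genes rose in 14.4% and fell in 12.2% of 13867, and long noncoding genes in 3.82% and 6.03% of 3166. These shares are a description, genes are not replicates, and the span bins above 100 kb and the exclusion of histones were chosen after values were seen.

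**Figure D4:**
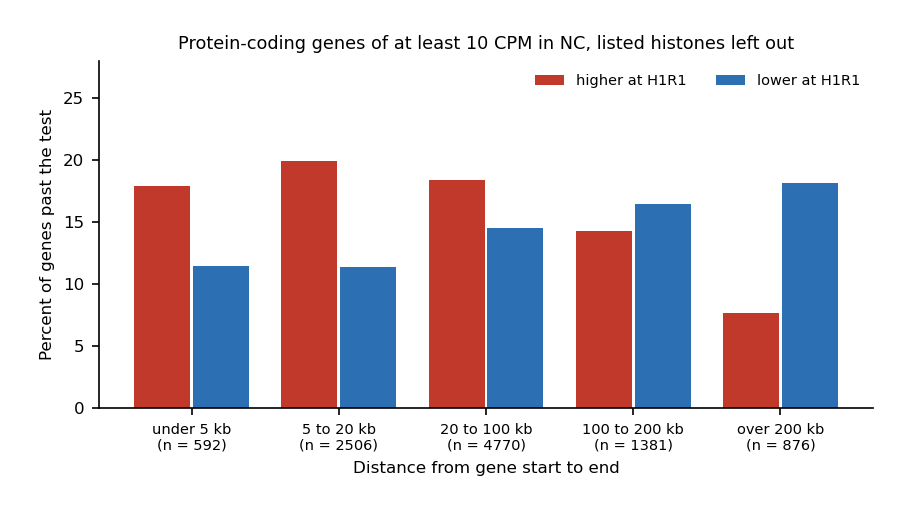
Percent of protein-coding genes of at least 10 CPM in NC that rose (red) or fell (blue) at H1R1 against NC (vertical axis), by the distance from gene start to end (horizontal axis), with listed histones left out. Rises go down to 7.65% and falls up to 18.2% of genes in the bin over 200 kb.

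To see which changes were made during the hour of recovery, H1R1 was also compared with H1 in the same model. From the end of the heat to H1R1, 1343 genes rose (6.35% of those tested) and 1074 fell (5.08%). The number depended on the libraries: without H1 replicate 1, 617 rose and 473 fell, without H1 replicate 2, 581 and 464, and without H1R1 replicate 1, 587 and 372. Several chaperones went on rising. HSPA8 was at 2192 and 1695 CPM at H1R1, against 945 and 918 CPM at H1 (log2 fold change 1.06, SE 0.11, edgeR adjusted p = 2.25e-08), and HSPA4L at 407 and 479 CPM at H1R1, against 248 and 279.9 CPM at H1 (log2 fold change 0.75, SE 0.09, edgeR adjusted p = 2.91e-07). In the HSP90 system 7 of 15 rose above H1 and 2 fell below it. CHORDC1 was 1 of these, at 464 and 498 CPM at H1R1, against 691 and 729 CPM at H1 (log2 fold change -0.56, SE 0.09, edgeR adjusted p = 6.85e-05). ZFAND2A, DNAJB6 and SERPINH1 were near their H1 level (-0.01, -0.05 and -0.03), and none of these passed the test.

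Early genes split further over the same hour. JUN, FOS, FOSB and EGR1 were lower at H1R1 than at H1, by log2 fold changes of -0.66, -1.46, -1.48 and -1.15. FOS was at 24.9 and 23.9 CPM at H1R1, against 76.8 and 57.4 CPM at H1 (log2 fold change -1.46, SE 0.19, edgeR adjusted p = 3.4e-06). FOSL2, SMAD7, BAMBI, DUSP16 and KLF3 were still rising, by 1.14, 1.06, 1.02, 0.90 and 0.99. SMAD7 was at 306 and 277 CPM at H1R1, against 132 and 149 CPM at H1 (log2 fold change 1.06, SE 0.11, edgeR adjusted p = 4.22e-08). The BiP gene HSPA5 was at 1084 and 1002 CPM at H1R1, against 577 and 552 CPM at H1 (log2 fold change 0.89, SE 0.07, edgeR adjusted p = 9.21e-11). Ribosome biogenesis genes rose in 28 of 50, ER genes in 11 of 25 and TRiC genes in 6 of 10. Downward, 36 of 47 core histones and 11 of 25 ATF4 targets were below H1. SLC7A11 was at 84.9 and 128 CPM at H1R1, against 264 and 254 CPM at H1 (log2 fold change -1.30, SE 0.13, edgeR adjusted p = 1.28e-08). MYC had already fallen by the end of the heat and was slightly higher at H1R1 (128 and 151 CPM at H1R1, against 111 and 119 CPM at H1, log2 fold change 0.27, SE 0.09, edgeR adjusted p = 0.0444). H1R1 against NC and H1R1 against H1 share the H1R1 libraries, so their values are not independent.

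**Figure D5:**
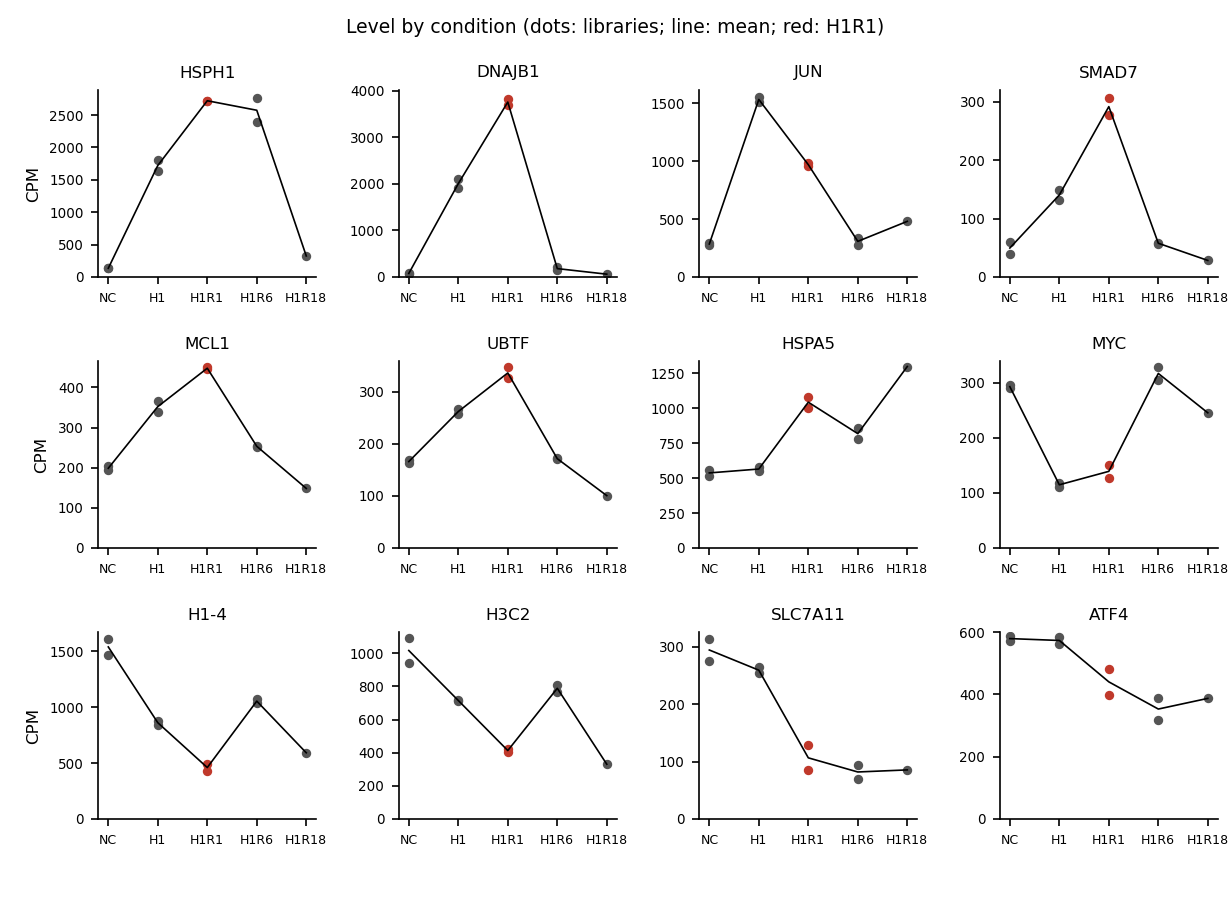
TMM-normalized CPM (vertical axis, each panel from 0) of 12 genes in every library (dots, H1R1 in red) with the mean of each condition as a line, for NC, H1, H1R1, H1R6 and H1R18 in that order and not to time scale. DNAJB1, SMAD7, MCL1 and UBTF have their highest mean at H1R1, JUN at H1, and H1-4 its lowest mean at H1R1.

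At H1R6 these genes had gone different ways. Relative to NC, HSPH1 was 4.26 and HSP90AA1 2.08 higher on the log2 scale, HSPA8 0.17, SMAD7 0.20 and DUSP1 0.05. SLC7A11 was at -1.84 and H1-4 at -0.55 on the same scale. These later values are given as context and their differences from H1R1 were not tested.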

How the data were processed

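RNA-seq counts of 9 HEK293T libraries were analysed. The deposited values are whole counts of reads per gene, with the summed exon length of each gene (bases) beside them. Per the header of the deposited table, the authors counted reads over exons with featureCounts 2.0.2, the Ensembl 104 annotation of GRCh38 and no strand option. HISAT2 2.2.1, cutadapt 4.1, FastQC 0.11.8 and DESeq2 1.38.3 are listed, without their roles, in the processing notes of the submitters. Between 81.8% and 87.6% of nonzero counts were even, so both reads of a pair appear to have been counted, which makes intervals from counts too narrow. The counts carry no strand, so antisense and overlapping genes cannot be told apart. Libraries held 3814195 to 6221613 counts, and intervals cover counting error only.

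Groups came from the labels. Genes were kept by filterByExpr (minimum count 10, minimum total 15), scaled by TMM and tested with edgeR 4.0.16 (glmQLFit and glmQLFTest, R 4.3.3) with 1 coefficient per condition over all 9 libraries, and p-values were adjusted by Benjamini-Hochberg over the 21139 genes tested. SE is the size of the log2 fold change divided by the square root of the F value. Tables and exact intervals were made in Python 3.11.15 with pandas 2.3.3 and scipy 1.17.1, and figures with matplotlib 3.10.9. Steps were tested on simulated data. DESeq2 1.42.0, other scalings, filters and sample sets, a replicate block, gene type, read pairs, a fold threshold and leaving out each library gave 20 alternatives. Current names matched 60463 gene IDs (99.7%).

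Genes were named by rule: the 15 largest called changes in each direction whose log2 CPM averaged 3 or more, with no overlap between H1R1 and NC libraries; per list, up to 4 tested members of smallest adjusted p in each direction and up to 3 of highest level; 10 stress and early genes (HSF1, HSPA1A, HSPA1B, MYC, ATF4, DDIT3, HSPA5, CDKN1A, FOS and EGR1). CHORDC1, HSPA6 and the other promoters shown were chosen after their windows were searched. The 53 gene lists, the comparison and the alternatives were chosen with earlier results of these data known. The 30 kb limit for neighbouring genes was chosen after values were seen. Lists were counted and not tested as sets. The shares over all tested genes beside them were not matched for level, and calls were more frequent among genes of high level. The HLA region genes at or near 0, among them HSPA1A and HSPA1B, could not be tested. Some named genes are not reported here.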

Additional observations from a re-analysis of the deposited data

Results flagged for a closer look

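The comparison of H1R1 with H1, a difference between times tested in the same edgeR model, called 1343 genes higher and 1074 lower at H1R1. Among the 15 largest rises over NC, 6 were also higher at H1R1 than at H1, beside 6.35% of all tested genes. These genes were chosen by the same H1R1 libraries, which favours values above H1, so the count is not independent support. The log2 fold changes of H1R1 over H1 were 1.42 for HSPA6, 0.91 for DNAJB1, 0.66 for HSPH1, 0.81 for BAG3, 1.14 for FOSL2 and 1.29 for SCUBE2. The other 9 did not pass the test between these times.

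Among the 15 largest falls below NC, 13 were also lower at H1R1 than at H1, beside 5.08% of all tested genes. Here too the genes were chosen by the same H1R1 libraries, which favours values below H1, so the count is not independent support. The log2 fold changes of H1R1 over H1 were -1.98 for NKX2-3, -1.94 for ACCS, -1.83 for TRIM66, -1.68 for GMDS-DT, -1.27 for ASNSP1, -1.05 for H1-3 and -1.36 for H2BC8. For genes known only by an identifier they were -2.04 for ENSG00000275110, -3.04 for ENSG00000286071 and -1.55 for ENSG00000280434. The 3 genes on chromosome 21 had -2.46 (ENSG00000281181), -2.02 (ENSG00000281383) and -1.32 (ENSG00000280800), with libraries of 1 condition that differed among themselves. No explanation was tested for any of these values.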

How the results depend on the processing

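No named gene turned from a rise to a fall, or from a fall to a rise, under the 20 alternatives. The balance of calls did turn in places. With scaling by library size, DNA replication genes had 4 rises and 13 falls, in place of 7 and 4. Of 311 named genes that passed the test, 227 kept their call under every alternative with the same threshold. Against NC, the number of genes that rose ranged from 1385 to 2231 and that of genes that fell from 912 to 1846 when each library of a condition with 2 libraries was left out in turn. Against H1 these ranges were 581 to 1461 and 372 to 1178. Without the single H1R18 library, 2247 and 2048 genes were called against NC and 1339 and 1092 against H1. DESeq2 called 1506 rises and 1050 falls against NC and 725 and 406 against H1. Testing against a log2 fold change of 1 with edgeR left 113 and 55 against NC and 4 and 2 against H1. Scaling by library size gave 1821 rises and 2487 falls against NC, so that 42.3% of calls were rises in place of 52.8%, and shifted the median log2 fold change by -0.063. Upper-quartile scaling gave 48.0%. Of 106 counts of list members, 44 moved by over 1.5 times without H1R1 replicate 1, 28 without NC replicate 1, 34 with DESeq2 and 23 with library size. The cause of these moves was not tested.

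Same-numbered libraries did not deviate together (correlations of -0.074 to 0.011 over 7118 genes), so no shared effect of the replicate number was seen. Whether same-numbered libraries were handled together is not stated, and these correlations cannot show it. With the replicate number as a block, 2218 genes rose and 1962 fell against NC, and 1297 and 1045 against H1. With 2 libraries per condition, the spread was estimated over all conditions, and leaving one out leaves a single library that is assumed to vary like the others.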

Other observations

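Transcription factors of developmental families, a group put together after values were seen, leaned upward at H1R1. Of 140 tested members 50 rose and 5 fell (35.7% and 3.57%, against 10.7% and 9.53% of all tested genes), with a median log2 fold change of 0.29. GATA2, a zinc finger factor of blood and vessel development, was at 451 and 424 CPM at H1R1, against 94.2 and 84.5 CPM in NC (log2 fold change 2.29, SE 0.09, edgeR adjusted p = 6.73e-19). FOXC1, a forkhead factor, was at 589.9 and 559 CPM at H1R1, against 198 and 183 CPM in NC (log2 fold change 1.59, SE 0.08, edgeR adjusted p = 2.84e-16). EN2, MSX2, FOXF1 and TBX3 rose by 2.27, 2.11, 2.06 and 1.66. Of zinc finger genes with ZNF names 45 of 395 rose and 55 fell, and of those with ZBTB names 12 of 33 rose and 6 fell.

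Protein-coding genes of the HLA stretch of chromosome 6, from 29 to 34 Mb, were nearly absent from the counts. Of 182 such genes 19 were tested (10.4%) and 117 were at 0 in every library (64.3%), against 12.7% at 0 among all other protein-coding genes. HSPA1A and HSPA1B lie there and could not be tested. Why counts are low there was not tested.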
